A study of Mus musculus with 2 samples.

Results

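Il2 and Il21 are neighbouring cytokine genes on mouse chromosome 3, and the acetylation of histone H3 along them was measured in Th2 cells, the subset of helper T cells known for interleukin 4. The interval was chosen by position, from 36980001 to 37160000 on chromosome 3 (mm9), and covers 180 bins of 1 kb out of 2246042 bins of the genome that held a read. Of the 180 bins, 170 held a read. Spleen cells of C57BL/6 mice carrying CD4 and CD62L had been stimulated with antibodies to CD3 and CD28 for 5 days. IL-4 (10 ng/ml) and an antibody to interferon gamma (2 µg/ml) were present, and the cells then rested for 3 days. From these cells 1 chromatin immunoprecipitation library was made with an antibody to acetylated lysines of histone H3 (H3KAc), and 1 with non-specific rabbit IgG, which gives the background. The labels give neither the age of the mice nor how many were pooled. The H3KAc library had 19711169 distinct read positions and the IgG library 1897666, so that IgG limited the precision of each ratio.

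Interleukin 2 is the growth factor that T cells secrete after stimulation through the antigen receptor and CD28, and its gene is switched on by NFAT, AP-1 and NF-kB. Interleukin 21 is secreted by CD4 T cells, above all by follicular helper cells, and acts on B cells and T cells. Both cytokines signal through receptors that share the common gamma chain. Acetylation of histone H3 marks active promoters and enhancers, and it is usually low over silent genes.

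The promoters are shown because the start of Il2 is among the places measured below and the values around Il21 carry the main difference. Both promoters were found in the RefSeq table, which is on GRCm38.p6, so they carry no mm9 coordinates here. Both genes lie on the minus strand of chromosome 3. The 250 bases before each start are shown 5′ to 3′ in lower case, with capitals for matches to GGAAA or its reverse complement (the core bound by NFAT) and to the TATA box letters, TATAAA.
Il2: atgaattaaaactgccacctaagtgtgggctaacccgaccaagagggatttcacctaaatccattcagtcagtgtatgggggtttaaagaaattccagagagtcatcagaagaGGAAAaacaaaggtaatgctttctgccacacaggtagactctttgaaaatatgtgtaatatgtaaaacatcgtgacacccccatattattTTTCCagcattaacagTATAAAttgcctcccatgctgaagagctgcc
Il21: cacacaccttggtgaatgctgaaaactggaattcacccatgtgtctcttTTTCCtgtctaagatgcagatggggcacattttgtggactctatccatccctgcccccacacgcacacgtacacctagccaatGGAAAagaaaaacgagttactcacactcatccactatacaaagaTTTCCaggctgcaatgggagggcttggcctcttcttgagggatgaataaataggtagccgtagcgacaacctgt

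The Il2 promoter held 2 matches to GGAAA and the Il21 promoter 3, on either strand. At least 2 matches occurred in 21.4% of the 32851 promoters of the table, and at least 3 in 6.39%. TATAAA was present 1 time in the Il2 promoter, from base -31 to base -26 before the start, and was searched on both strands without a match in Il21. It occurred in 12.4% of all promoters. The letters TGANTCA (AP-1) and TTCNNNGAA (STAT factors) were found in neither promoter, and in 6.75% and 7.02% of all promoters. CpG dinucleotides numbered 2 in Il2 and 5 in Il21, against a median of 6 over all promoters. G and C made up 40.4% of the bases in Il2 and 47.6% in Il21, against a median of 52.4%. A match describes the letters of these windows and does not show that a factor was bound.

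H3KAc was raised around Il21 and close to the genome's average over Il2. Because only the approximate Il2 interval (37019001 to 37025000) and a position near 37120000 for Il21 were given, the interval was divided into 5 sections. These were the bins below the Il2 interval, the Il2 interval, the bins between the genes, a 20-kb Il21 window (37115001 to 37135000) and the bins above it. The Il21 window reaches from 5 kb below to 15 kb above the given position, since a minus-strand gene begins at its higher end. Its bounds, like those of the other sections, were set with earlier results of these data known. In the RefSeq order of genes on GRCm38.p6, Adad1 and 3 pseudogenes lie below Il2, the long noncoding RNA genes Gm36000 and Gm12532 lie between Il2 and Il21, and Gm36168 and Cetn4 come next after Il21.

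Each read position was counted 1 time and moved 100 bp along its strand, and levels are reads per 1000000 distinct positions of the library (RPM). Over the whole interval H3KAc had 1756 reads, or 89.1 RPM, and IgG had 123 reads, or 64.8 RPM. The ratio of H3KAc to IgG was 1.37, with an exact conditional binomial 95% interval of 1.14 to 1.66. This interval, like all those below, covers counting error only. With 1 library of each kind there is no replicate check and no p-value, and the values compare these libraries. A higher level can come from more cells with the mark or from more of it in each cell, and these cannot be told apart in a pool of cells.

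**Figure D1:**
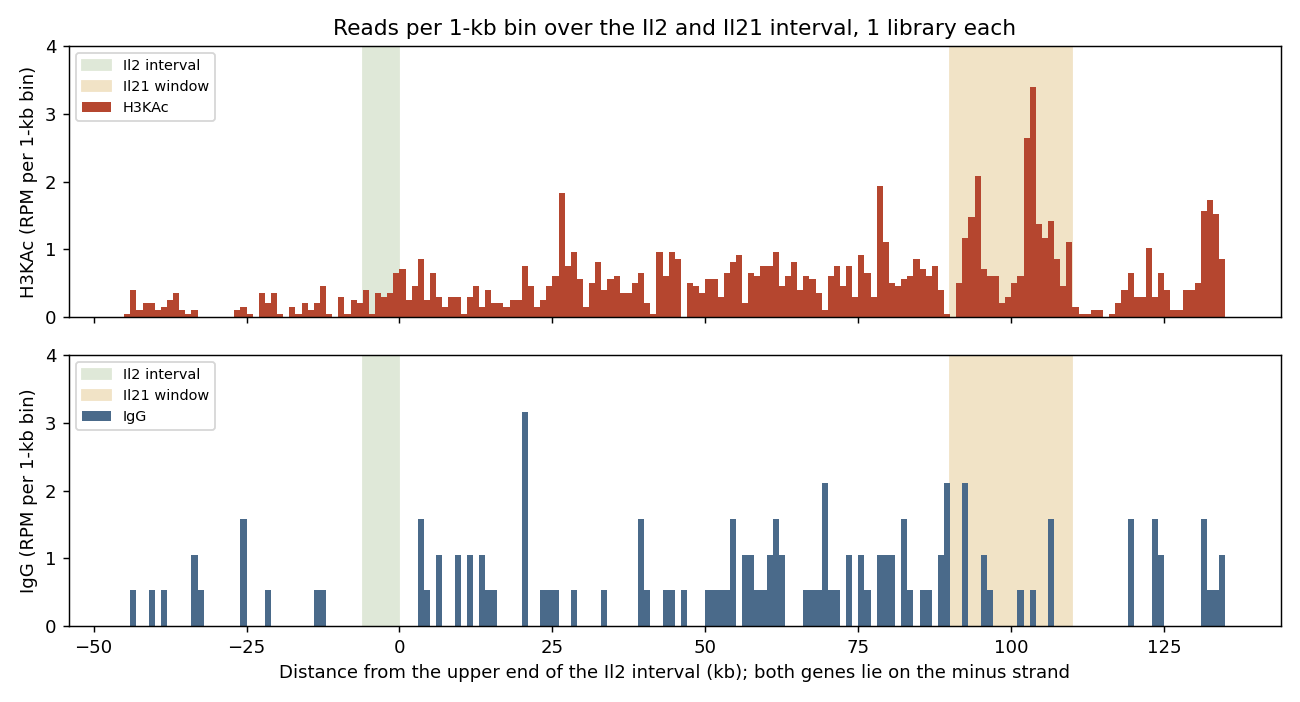
H3KAc (upper panel) and IgG (lower panel) in RPM for each 1-kb bin, by distance in kb from the upper end of the Il2 interval, with the Il2 interval and the Il21 window shaded. H3KAc is highest in the Il21 window, where 1 bin reaches 3.40 RPM, and low to the left of Il2, while the highest IgG bin (3.16 RPM) lies between the genes.

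The Il21 window carried 418 H3KAc reads and 12 IgG reads, that is 21.2 RPM against 6.32 RPM. The ratio was 3.35 (1.90 to 6.54). It held 23.8% of the interval's H3KAc reads in 11.1% of its bins. With 10 kb on each side of the given position as the window, the ratio was 2.09 (1.29 to 3.63). Over the 160 bins outside the Il21 window, a set chosen after seeing the data, the ratio was 1.16 (0.956 to 1.42), an interval that includes 1 and overlaps that of the whole interval. Within the window, 17 of 20 bins had more H3KAc reads than the median covered bin of the genome, which held 6. In the genome 46.4% of covered bins did so. So did 64 of 90 bins between the genes, 4 of 6 in the Il2 interval, 12 of 25 above Il21 and 5 of 39 below Il2.

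The Il2 interval carried 42 H3KAc reads and no IgG read. H3KAc was 7.00 reads per kb there (exact Poisson 95% interval 5.04 to 9.46), against 8.78 per covered kb in the rest of the genome, which is 0.798 times that level (0.575 to 1.08). It had 0.355 RPM per kb in H3KAc, while a count of 0 in IgG allows up to 0.263 RPM per kb (3 counts). The exact Poisson 95% interval of IgG, as plotted with the sections, reaches 0.324 RPM per kb. The lower end of the 95% interval of the ratio was 1.05, and it has no upper end. IgG was also absent from the bins beside it, since 15 bins in a row from 37013001 to 37028000 held none.

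Across the 6 bins of the Il2 interval, from low to high coordinate, H3KAc had 8, 1, 7, 6, 7 and 13 reads, and IgG had 0 in each. The highest, with 0.660 RPM (0.351 to 1.13), was the bin from 37024001 to 37025000 at the end where the gene begins. It stood above 78.7% of the covered bins of the genome, and the bin with 1 read above 0.922% of them. The bin just beyond the interval, from 37025001, had 14 H3KAc reads and no IgG read. The 4 bins centred on the upper end of the interval held 39 H3KAc reads, or 9.75 per kb (6.93 to 13.3), and no IgG read, which gives a lower bound of the ratio of 0.970. H3KAc there was 1.11 times the rest of the genome (0.790 to 1.52) and 1.38 times the rest of chromosome 3 (0.978 to 1.88). Both intervals include 1, so a rise at the start of Il2 above these averages was not resolved. Against the bins below Il2, where both libraries were thin, H3KAc in these 4 bins was 3.59 times as high (2.42 to 5.22).

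**Figure D2:**
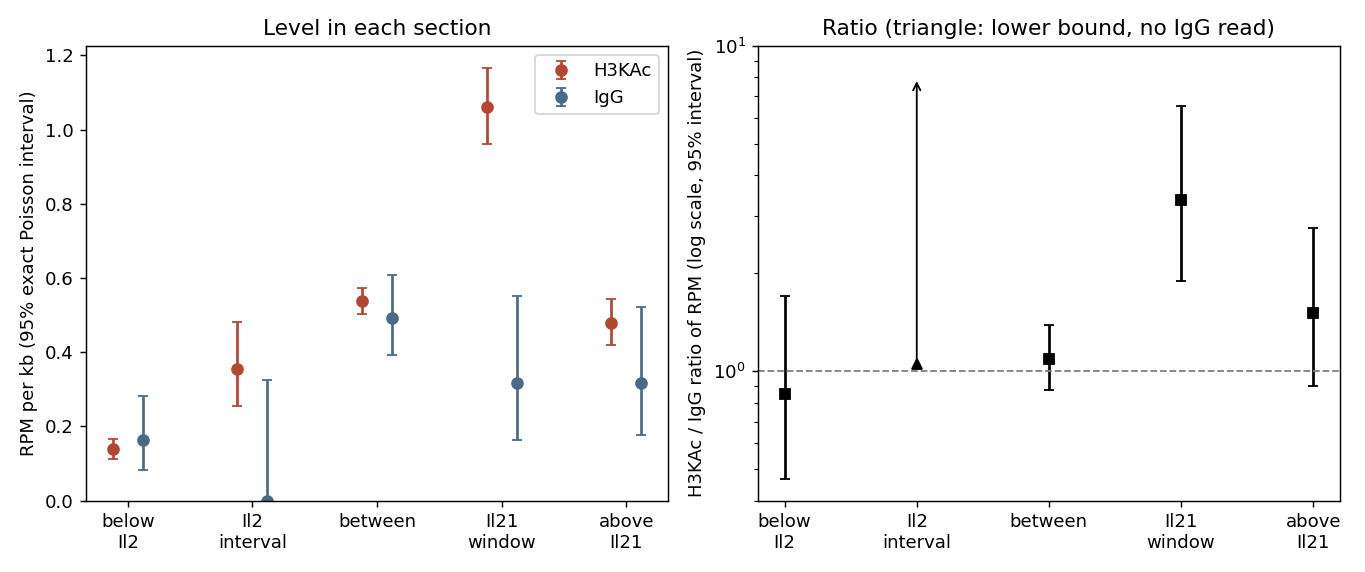
Left, H3KAc and IgG in RPM per kb for the 5 sections with exact Poisson 95% intervals. Right, the ratio of H3KAc to IgG on a log axis with its 95% interval, where the triangle with an arrow marks a lower bound (Il2 interval, no IgG read); the Il21 window is the highest in H3KAc and has a ratio of 3.35, and the bins between the genes have nearly the same level in both libraries.

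In order of H3KAc, the Il21 window had 20.9 reads per kb (18.9 to 23.0), the bins between the genes 10.6 (9.94 to 11.3), the bins above Il21 9.44 (8.27 to 10.7), the Il2 interval 7.00 and the bins below Il2 2.72 (2.23 to 3.29). The Il21 window exceeded the bins between the genes 1.97-fold (1.75 to 2.21) and the Il2 interval 2.99-fold (2.17 to 4.20). The bins above Il21 were 0.891 times those between the genes (0.769 to 1.03), and 1.35 times the Il2 interval (0.968 to 1.92). Both intervals include 1, so these neighbours in the order did not differ beyond counting error. The bins between the genes, which are not its neighbour in the order, exceeded the Il2 interval 1.51-fold (1.11 to 2.12). The Il2 interval exceeded the bins below it 2.58-fold (1.76 to 3.71). These values count every bin of a section, and only 31 of the 39 bins below Il2 held a read. Per covered kb H3KAc was 3.42 there, which would make this fold smaller.

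Along the same sections IgG had 0.600 reads per kb in the Il21 window, 0.933 between the genes, 0.600 above Il21, 0 in the Il2 interval and 0.308 below Il2. IgG was therefore low where H3KAc was lowest, and it was not high in the Il21 window. The ratio of H3KAc to IgG was 1.09 (0.874 to 1.38) between the genes, 1.51 (0.900 to 2.75) above Il21 and 0.850 (0.467 to 1.70) below Il2, and each interval includes 1. The ratio in the Il21 window was 3.07 times that between the genes (1.64 to 6.24) and 3.93 times that below Il2 (1.57 to 9.87). Against the bins above Il21 it was 2.21 times as high (0.948 to 5.27), which includes 1. Against the Il2 interval it was at most 3.73 times as high and could also be lower, because no IgG read fell there. The difference between Il21 and Il2 thus holds for the H3KAc level and was not resolved for the ratio.

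The highest bins of the interval lay in the Il21 window. A bin was called enriched when it had at least 5 reads in both libraries together and the lower end of the interval of its ratio exceeded 2. This rule called 0 of 132 bins with enough reads, against 0.0836% of such bins in the genome. A bin with no IgG read needed 79 H3KAc reads to pass, and the highest bin here had 67. With a lower end above 1, 3 of the 132 bins passed, or 2.27%, against 0.651% of the bins in the genome, and all 3 lay in the Il21 window. The opposite call, an upper end below 0.5, was made for 2 bins, or 1.52%, against 0.629% in the genome.

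The highest was the bin from 37128001 to 37129000, with 67 H3KAc reads (3.40 RPM, 2.63 to 4.32) and 1 IgG read. Its ratio was 6.45 (1.12 to 259). In the genome 0.538% of covered bins had as many H3KAc reads. The adjoining bin from 37127001 to 37128000 had 52 H3KAc reads (2.64 RPM, 1.97 to 3.46) and IgG had none, which puts the lower bound of the ratio at 1.31. These were the only 2 bins of the interval at or above the genome's 99th percentile of 46 reads. They made up 1.11% of the interval's bins, near the 1.02% of covered bins in the genome. The bin from 37119001 to 37120000 was next, with 41 H3KAc reads (2.08 RPM, 1.49 to 2.82) against 0 IgG reads and a lower bound of 1.02. These 3 bins were picked for high H3KAc, so the ratio and lower bounds given for them lean upwards. With reads not moved, the lower end for the bin from 37127001 was 0.606, and with IgG scaled by background bins that for the bin from 37119001 was 0.965. With thinned H3KAc or either strand alone, the lower end for the bin from 37128001 was between 0.522 and 0.856. All 3 bins had nearly equal numbers of H3KAc positions on the strands, with 33 plus and 34 minus, 23 plus and 29 minus, and 20 plus and 21 minus.

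These bins belonged to 2 stretches, taken as consecutive bins at or above the genome's 95th percentile of 24 reads. In the whole interval 11 of 180 bins reached that level, or 6.11%, near the 5.57% of covered bins in the genome. The first stretch covered 3 kb from 37127001 to 37130000, with 146 H3KAc reads and 1 IgG read, which is 7.41 RPM against 0.527 RPM. The second covered 2 kb from 37118001 to 37120000, with 70 H3KAc reads and no IgG read. Between them the lowest bin, from 37123001, had 4 H3KAc reads. In the Il21 window 1 more bin reached that level, from 37131001 to 37132000, with 28 H3KAc reads and 3 IgG reads. The first and second stretch were picked for high H3KAc, so their ratios lean upwards and are not given. In 100-bp steps the first stretch was densest from 37128601 to 37128900, where 300 bases held 37 of the 67 reads of their bin and no IgG read. The Il21 start could not be placed on mm9 here, so the distance of these stretches from the promoter shown above is not given.

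**Figure D3:**
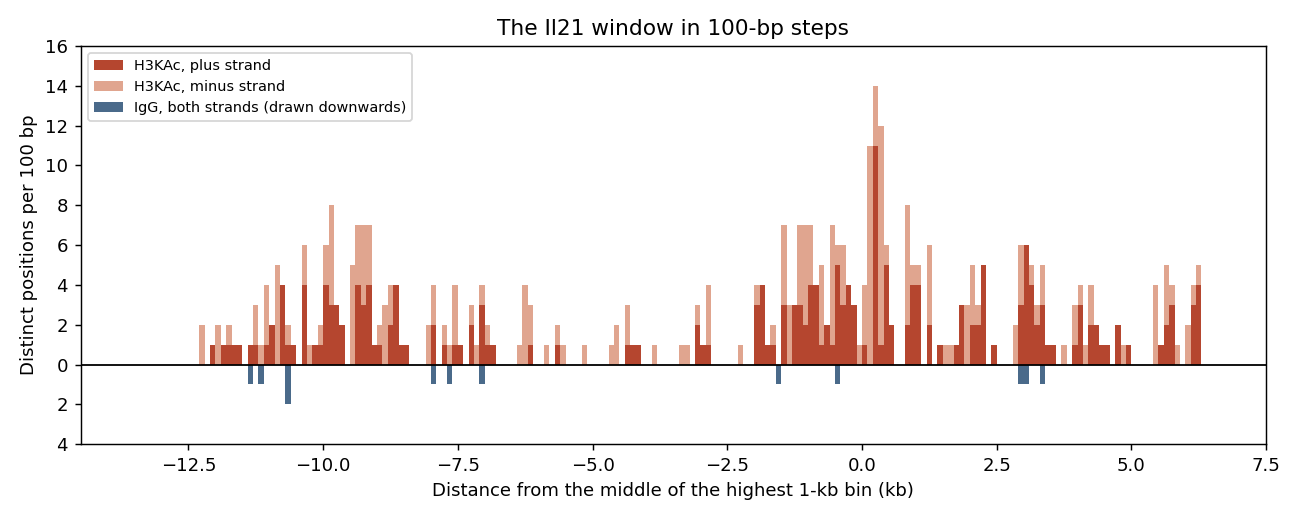
Distinct read positions per 100 bp in the Il21 window, by distance in kb from the middle of the highest 1-kb bin, with H3KAc upwards by strand and IgG downwards. H3KAc is densest just right of 0, with up to 14 positions per 100 bp, and a lower stretch lies about 9 kb to the left, while IgG has at most 2 per 100 bp.

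Outside the Il21 window, 5 bins reached the 95th percentile. Their ratios had wide intervals and lean upwards, because these bins too were picked for high H3KAc. Between the genes, the bin from 37103001 to 37104000 had 38 H3KAc reads (1.93 RPM, 1.36 to 2.65) and 2 IgG reads, with a ratio of 1.83 (0.473 to 15.7). Of its H3KAc reads 71.1% lay within 300 bases, from 37103101 to 37103400, and both IgG reads lay there too. The bin from 37051001 to 37052000 had 36 H3KAc reads (1.83 RPM, 1.28 to 2.53) and no IgG read, and its lower bound was 0.892. Above Il21, 3 neighbouring bins from 37156001 to 37159000 reached the 95th percentile, with 95 H3KAc reads and 5 IgG reads together. The highest of them, from 37157001, had 34 H3KAc reads against 1 IgG read, and its ratio was 3.27 (0.549 to 133). The 95% intervals given here for single bins all include 1.

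IgG had its highest bins in other places. The bin from 37045001 to 37046000 had 15 H3KAc reads (0.761 RPM) against 6 IgG reads (3.16 RPM), and its ratio was 0.241 (0.0882 to 0.757). The bins from 37094001 and from 37114001 had 2 and 1 H3KAc reads and 4 IgG reads each, and these were the 2 bins called lower in H3KAc. In the Il21 window the bin from 37117001 had 23 H3KAc reads against 4 IgG reads, and its ratio was 0.554 (0.189 to 2.20). Below Il2 the bin from 36999001 had 3 H3KAc and 3 IgG reads. A count of 4 IgG reads is 2.11 RPM, about the level of the 41 H3KAc reads in the bin from 37119001, so single IgG reads weigh heavily in these values.

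Over 11 bins centred on each bin IgG is measured with more reads, and this widened the calls around Il21. With a lower end above 2, 6 of 158 bins were called, or 3.80%, against 1.59% in the genome. Of these, 5 lay in the Il21 window, among 19 of its bins with enough reads, and they began at 37127001, 37128001, 37129001, 37131001 and 37134001. The other was the bin from 37051001. The bin from 37131001 itself held 3 of the 5 IgG reads in its 11 bins. To its own IgG its ratio was 0.899 (0.278 to 4.62). None of the 6 bins was called with its own IgG, so all 6 calls rest on the wider IgG. The 11-bin spans of nearby bins overlap and share IgG reads, so the calls in the Il21 window are not independent of each other. The bin from 37128001 had a ratio of 14.2 (5.79 to 45.1) to this wider IgG, the bin from 37127001 one of 11.01 (4.43 to 35.3), and the bin from 37051001 one of 9.53 (3.42 to 36.9). These bins and that from 37119001 were picked for high H3KAc, so their ratios lean upwards. The bin from 37119001, with 11 IgG reads in its 11 bins, had 3.95 (1.99 to 8.52) and narrowly missed the call. In the Il2 interval no bin was called, and the bin from 37024001 had 3.44 (1.06 to 14.5).

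**Figure D4:**
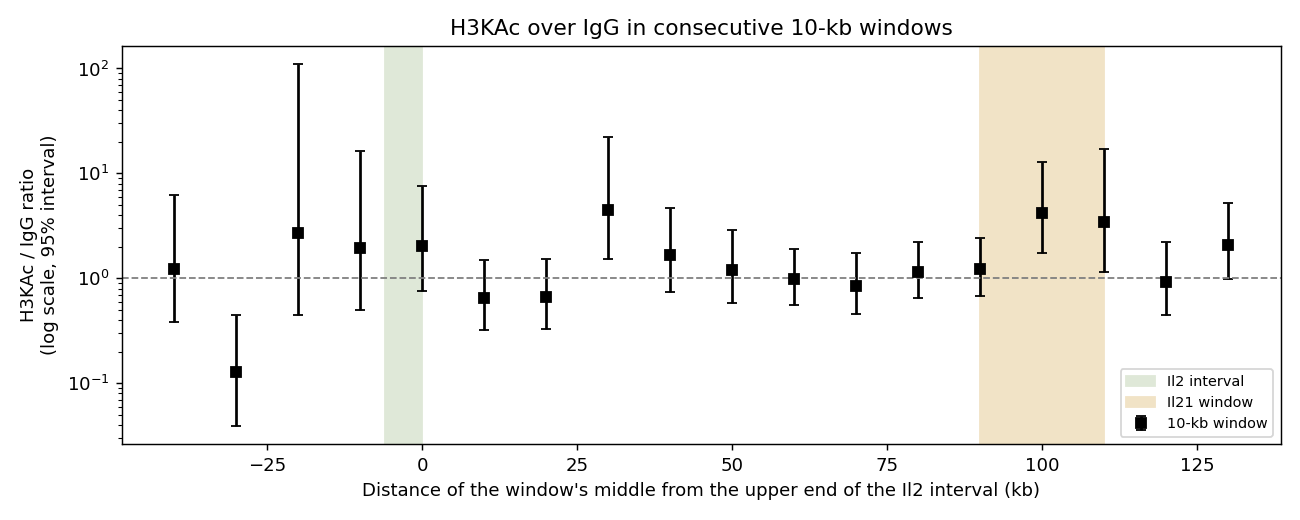
Ratio of H3KAc to IgG on a log axis in 18 consecutive 10-kb windows, by distance in kb from the upper end of the Il2 interval, with 95% intervals. The windows from 37050001, 37120001 and 37130001 lie wholly above 1, the window from 36990001 lies wholly below it, and the other windows include 1.

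In windows of 10 kb the lower end of the ratio's interval exceeded 1 in 3 of 18, or 16.7%, against 5.29% of such windows in the genome. The upper end was below 1 in 1 of 18, or 5.56%, against 6.32% in the genome. The window from 37120001 to 37130000 had 216 H3KAc reads against 5 IgG reads, and its ratio was 4.16 (1.75 to 12.9), and the next, from 37130001, had 108 against 3 and a ratio of 3.47 (1.15 to 17.1). The window from 37050001 to 37060000 had 141 H3KAc reads against 3 IgG reads, with a ratio of 4.52 (1.52 to 22.2). The window from 37020001, which holds most of the Il2 interval, had 84 H3KAc reads against 4 IgG reads and a ratio of 2.02 (0.761 to 7.59). The window from 37110001, with the stretch at 37118001, had 153 H3KAc reads against 12 IgG reads and a ratio of 1.23 (0.683 to 2.43).

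Below Il2 both libraries were thin. H3KAc was 3.42 reads per covered kb there, 0.390 times the rest of the genome (0.319 to 0.471), and IgG was 0.387 per covered kb, 0.458 times the rest (0.237 to 0.800). No read of either library fell in the 5 bins from 36993001 to 36998000, and the 10-kb window from 36990001 had 8 H3KAc reads against 6 IgG reads and a ratio of 0.128 (0.0391 to 0.449). How well short reads can be placed in this stretch was not tested, so low values in both libraries cannot be told apart from missing alignments. Another low stretch followed the Il21 window, where the 7 bins from 37135001 to 37142000 had 10 H3KAc reads against 0 IgG reads.

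The interval as a whole lay near the middle of the genome's windows in H3KAc, while the Il21 window lay above the genome's mean. The interval's 1756 H3KAc reads exceeded those of 47.9% of 8050 consecutive windows of the same width, whose median was 1802, and its 123 IgG reads exceeded those of 31.8%. On chromosome 3 alone it exceeded 60.0% of 438 windows in H3KAc. The Il21 window had 22.0 H3KAc reads per covered kb, 2.51 times the rest of the genome (2.27 to 2.76), while IgG there was 0.748 times the rest (0.386 to 1.31). The bins between the genes had 1.21 times the H3KAc of the rest of the genome (1.13 to 1.29) and 1.10 times its IgG (0.881 to 1.37). The bins above Il21 had 1.12 times its H3KAc (0.982 to 1.27).

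**Figure D5:**
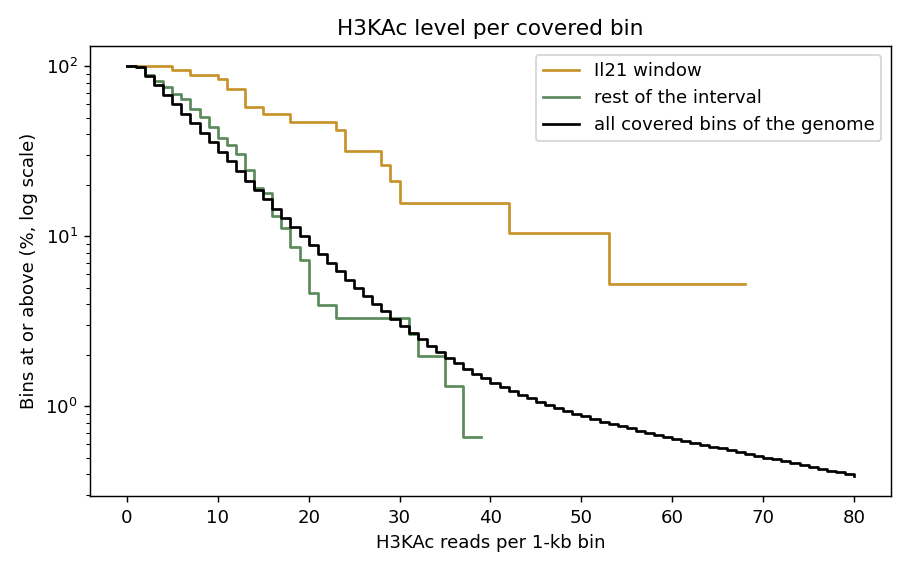
Share of covered 1-kb bins, on a log axis, with at least the number of H3KAc reads on the x axis, for the Il21 window, the rest of the interval and all covered bins of the genome. At 24 reads or more the Il21 window has 31.6% of its bins, the rest of the interval 3.31% and the genome 5.57%.

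Few H3KAc reads in the interval were repeats, as in the whole library. In the interval 92.3% of H3KAc positions were read 1 time, against 91.6% in the whole library. An H3KAc position was read 1.09 times on average (1.11 in the whole library) and at most 5 times. IgG positions were read 3.73 times on average (4.02 in the whole library) and up to 22 times. Of the IgG positions 35.8% were read 1 time, against 26.4% in the whole library. The H3KAc positions divided into 907 on the plus strand and 849 on the minus strand, and the IgG positions into 50 and 73. The ratio over the whole interval was 1.71 (1.29 to 2.33) with plus-strand reads and 1.14 (0.897 to 1.47) with minus-strand reads, which includes 1. In the Il21 window it was 5.10 (1.96 to 18.9) and 2.48 (1.23 to 5.81), above 1 on either strand.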

How the data were processed

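Each row of the deposited files is 1 aligned read of 35 bases with its chromosome, 0-based start and end, and strand, as the series' readme describes, and there is no normalised value. The alignment used Bowtie and mm9, per the submitters' processing notes. Its version and its handling of multiply aligned reads were not stated in the labels or the readme. Per the labels' protocols, fragments of about 200 bp were sequenced.

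Reads that shared chromosome, strand and 5′ end were taken as 1 position, moved 100 bp along their strand and counted in 1-kb bins. A bin with a read in either library was taken as covered. Ratios are of RPM, with exact conditional binomial (Clopper-Pearson) 95% intervals, and single levels have exact Poisson intervals. PCR copies carry no molecular identifier. Percentiles are over covered bins, and windows of 180 kb were used where at least 90% of their bins were covered. Bins named are Il2's, the 5 highest in each library, every called bin and the highest of each section. The bins, sections and lists were chosen with earlier results of these data known. Gene annotation on mm9 was not used here, so the planned lists of receptor and signalling genes and of cell type markers were not analysed, and the Th2 label was not checked against markers. Alternatives were all reads, other shifts, IgG scaled on 10-kb background bins, thinned H3KAc, single strands, other thresholds, IgG over 11 bins, 500-bp bins and other windows. Counting and intervals used pandas 2.3.3, numpy 2.4.6 and scipy 1.17.1, and figures matplotlib 3.10.9, under Python 3.11.15.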

Additional observations from a re-analysis of the deposited data

How the results depend on the processing

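The Il21 window kept a ratio above 1, with an interval that excluded 1, under all 8 alternatives tried, from 2.09 with a window of 10 kb on each side of the given position to 5.10 with plus-strand reads. Moving the reads by other distances left the number of reads in each section the same, apart from 1 read more in the start window of Il2. Scaling IgG by background bins multiplies every ratio by 0.943. Neither the other distances nor this scaling could therefore have changed the outcome for the Il21 window. The ratio over the whole interval lost its distance from 1 with minus-strand reads (1.14) and, in an alternative chosen after seeing the data, without the Il21 window (1.16). The lower bound for the Il2 interval (1.05) no longer exceeded 1 with IgG scaled by background bins (0.989), thinned H3KAc (0.916), plus-strand reads (0.441) or minus-strand reads (0.564), and that of the Il2 start window came to exceed 1 with all deposited reads (3.99) and thinned H3KAc (1.71). With all deposited reads the ratio turned to 1.56 below Il2, against 0.850, and the interval came to exclude 1 between the genes (ratio 1.15) and above Il21 (1.71), and the bin from 37103001 turned to 0.486. Between the genes it also excluded 1 with plus-strand reads (1.52), and above Il21 with minus-strand reads (2.67). The bin from 37045001 turned to 1.59 with IgG over 11 bins. The 0 bins called with a lower end above 2 became 8 with all reads, 3 with a lower end above 1 and 6 with IgG over 11 bins. The 3 bins with a lower end above 1 became 27 with all reads, 2 with reads not moved and with IgG scaled by background bins, 1 with thinned H3KAc, 0 with either strand alone and 1 with 500-bp bins. The 2 bins lower in H3KAc became 5 with all reads, 0 with reads not moved, 1 with reads moved 30 bp and 80 bp, 0 with thinned H3KAc and on the plus strand, and 1 on the minus strand. The share of bins called in the genome is given for the main calls, a lower end above 1 (0.651%) and IgG over 11 bins (1.59%). For the other alternatives it is not given, so their counts cannot be read as more or fewer than in the genome. Single strands and thinning use fewer reads, and with all reads copies of 1 position enter as independent. Thinning was 1 random draw. It kept 8 of the 39 H3KAc reads in the Il2 start window, against 166 of 1756 over the whole interval. The lower bound of 1.71 for that window therefore depends on the draw. Other causes were not tested. Of 144 values for 18 named bins under alternatives, 111 kept whether their interval excluded 1, and 2, both given above, crossed 1 where 1 of the compared intervals excluded it. No paired analysis was possible because each group has 1 library. The 123 IgG reads limit every ratio here.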
